A study of Mus musculus with 9 samples.

Results

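The genes described are 31 members of the machinery that folds proteins in the endoplasmic reticulum (ER) and of the integrated stress response, out of 52381 genes in the deposited table. They were taken by gene symbol from a list of named genes, and the levels measured here were not part of that rule. Where a symbol stood on more than 1 line, the line with the higher mean was used, which applied to 1 member, Ddit3. By role they were 13 ER chaperones and folding enzymes, 4 genes of ER-associated degradation, 6 stress sensors and transcription factors with their feedback regulator, and 8 targets of the transcription factor Atf4. Levels came from RNA sequencing of whole mouse lung. In every mouse, acute lung injury (ALI) had been induced with lipopolysaccharide (LPS), an inflammatory component of the outer membrane of bacteria. The LPS-ALI group held 4 mice with this injury alone, and the TMAO group held 5 mice that also received trimethylamine N-oxide (TMAO), a metabolite derived from the gut flora. Each library came from 1 mouse, and lungs without LPS are not analysed here. No strain, sex, age, dose, route or time was given in the labels.

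The ER folds and glycosylates proteins that are destined for secretion or for membranes. When unfolded proteins accumulate, 3 sensors in its membrane are known to respond: Ern1 (IRE1) splices the Xbp1 transcript, Atf6 is cleaved to release a transcription factor, and Eif2ak3 (PERK) phosphorylates the initiation factor eIF2. The first pair of branches raises chaperones and degradation genes. Phosphorylation of eIF2 lowers general translation and favours translation of Atf4, which switches on genes of amino acid supply, redox control and cell death. Kinases that sense amino acid shortage, double-stranded RNA or haem shortage phosphorylate the same factor, so the Atf4 arm can also be switched on without ER stress. This shared arm is the integrated stress response. In the lung, alveolar type 2 cells, which secrete surfactant, and plasma cells, which secrete antibodies, are rich in ER.

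The arms are known to act through different promoter motifs, and the stretches that match them are shown because the levels below are described by the same roles. RefSeq promoter windows on GRCm38.p6, from 250 bases before to 50 bases after a transcription start, were supplied for 28 of the 31 members in 29 windows. Atf6, Hyou1 and Manf had no window. Both strands were searched for 4 motifs. The ER stress response element (ERSE), a CCAAT box and the letters CCACG with any 9 bases between them, is the known site of Atf6 and Xbp1 with NF-Y. The related ERSE-II is ATTGG and CCACG with any 1 base between them, the unfolded protein response element is TGACGTGG, and TGATGNAA is a form of the C/EBP-ATF response element (CARE) bound by Atf4. ERSE and ERSE-II share the letters CCACG and could overlap, but no member held both. The stretches are written 5′ to 3′ on the strand of the gene, with the match in capitals, and a match beginning CGTGG or TTGCATCA is the motif read on the other strand. Hspa5 and Asns have short flanks because their matches lie in the first exon, in the 5′ untranslated region, of GENCODE M21, although they lie before the RefSeq start. The other stretches lie upstream of all annotated exons of their gene.

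Hspa5, ERSE, chr2:34772020-34772048, plus strand: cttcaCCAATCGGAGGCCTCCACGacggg
Calr, ERSE, chr8:84847055-84847113, minus strand: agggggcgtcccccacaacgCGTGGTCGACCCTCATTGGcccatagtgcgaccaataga
Hsp90b1, distal ERSE, chr10:86705618-86705676, minus strand: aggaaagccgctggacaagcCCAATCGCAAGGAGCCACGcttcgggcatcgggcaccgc
Hsp90b1, proximal ERSE, chr10:86705513-86705571, minus strand: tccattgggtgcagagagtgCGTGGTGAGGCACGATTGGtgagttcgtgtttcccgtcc
Canx, ERSE, chr11:50325780-50325838, minus strand: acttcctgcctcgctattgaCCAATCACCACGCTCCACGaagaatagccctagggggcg
Pdia6, ERSE, chr12:17266471-17266529, plus strand: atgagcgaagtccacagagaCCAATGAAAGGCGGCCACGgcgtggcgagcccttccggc
Dnajc3, ERSE, chr14:118937807-118937865, plus strand: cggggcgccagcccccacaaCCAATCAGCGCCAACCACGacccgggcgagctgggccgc
Creld2, ERSE, chr15:88819500-88819558, plus strand: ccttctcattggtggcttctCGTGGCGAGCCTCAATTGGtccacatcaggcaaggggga
Syvn1, ERSE, chr19:6046512-6046570, plus strand: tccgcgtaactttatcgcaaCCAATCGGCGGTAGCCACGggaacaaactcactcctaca
Herpud1, ERSE-II, chr8:94386357-94386407, plus strand: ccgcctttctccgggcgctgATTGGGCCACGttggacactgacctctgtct
Herpud1, CARE, chr8:94386297-94386344, plus strand: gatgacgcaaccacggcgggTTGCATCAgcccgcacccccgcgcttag
Asns, CARE, chr6:7693220-7693237, minus strand: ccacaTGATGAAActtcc
Chac1, CARE, chr2:119351029-119351076, plus strand: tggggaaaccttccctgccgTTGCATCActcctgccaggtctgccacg

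ERSE was found in 7 of the 11 chaperone and folding enzyme genes with a window (63.6%) and in 1 of 4 degradation genes, Syvn1. It was found in 0 of 5 sensor and transcription factor genes and 0 of 8 Atf4 targets. Among all genes with a window, 37 of 27025 held it (0.137%). In Hspa5, 46 bases lay between the match and the RefSeq start, and over the members 25 to 193 bases did. Hsp90b1 held 2 matches. ERSE-II was found in Herpud1 alone among the members, and in 12 of 27025 genes in all. CARE was found in 3 of 8 Atf4 targets, Asns, Chac1 and Trib3, and in Herpud1, against 4.51% of all genes. The match of Trib3 lies after its start and is not printed. Herpud1 was therefore the only member whose window held a motif of both arms. The unfolded protein response element was in 0 members and in 0.714% of all genes. These are matches of letters and were not measured as binding. Motifs and members were both picked as known parts of this response, so the shares describe the windows and test nothing.

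**Figure D1:**
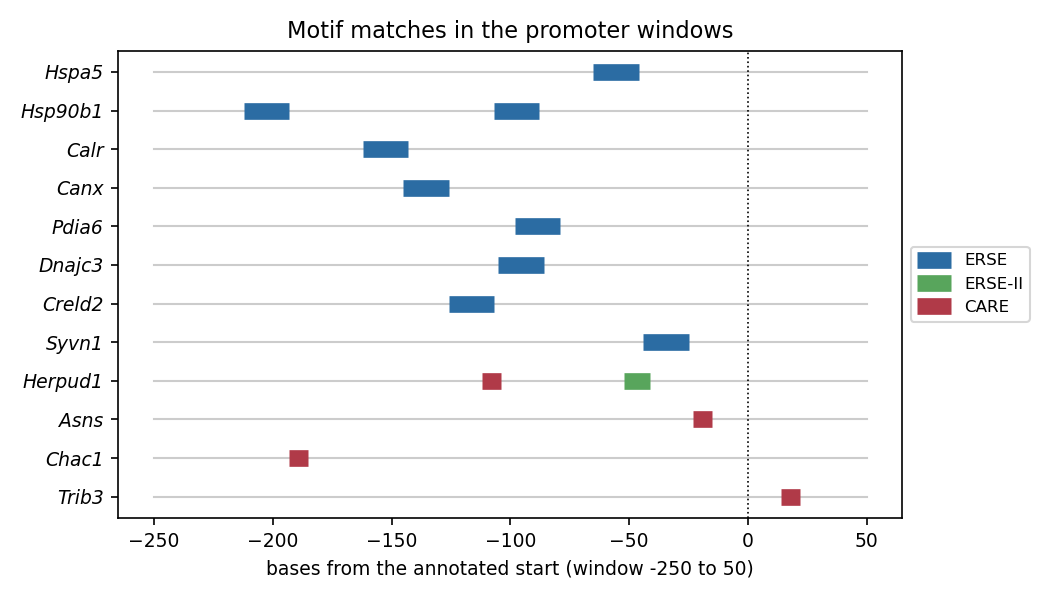
Positions of the promoter matches in the members that have one, each drawn as a bar from its first to its last base, in bases from the RefSeq transcription start. The ERSE matches belong to chaperone genes and Syvn1, and Herpud1 carries both an ERSE-II and a CARE match.

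Levels are FPKM, fragments scaled to gene length and to sequencing depth, so that they can be compared between genes. The spacing of low values gave an estimated 4290000 to 10130000 fragments per library. TMAO replicate 5 was the shallowest, with 8846 genes at 1 FPKM or more against 11158 to 12239 in the other 8 libraries, and it had the highest share of mitochondrial genes (52.2%, against 33.4% to 49.3%). The descriptions give LPS-ALI replicates 3 and 4 a code that begins with X and the other 7 libraries a code that begins with B, without saying what the letters stand for. No TMAO library has the X code, so within the X code there is no value for TMAO against LPS-ALI, and where leaving out these 2 libraries moved a member named in full by over 1.5 times, the value without them is given. The extraction protocol in the labels names platelets, whereas tissue and source are lung. The summed FPKM of 6 alveolar type 2 markers was 1090 to 14077 in the 9 libraries and that of 5 platelet markers 18.6 to 75.0. Differences are TMAO minus LPS-ALI on the log2(FPKM + 1) scale, which understates changes of low genes. The median of 11817 tested genes differed by -0.17 on this scale, and by 0.05 without TMAO replicate 5. A "relative difference" below is therefore the log2 difference minus that median, and its standard error (SE) and exact permutation p are those of the log2 difference itself, unless the scale of distance from each library's median gene is named. In bulk tissue, fewer cells of a type and less RNA per cell cannot be told apart.

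Atf4, the feedback regulator Ppp1r15a and the targets Ddit4 and Psat1 had lower mean levels with TMAO, without passing the test across all genes, while the abundant chaperones had close group means. Mean FPKM was 224 ± 155 (SD, n = 4) under LPS-ALI and 95.2 ± 38.7 (SD, n = 5) under TMAO for Atf4, and 85.3 ± 54.5 and 22.8 ± 5.97 for Ppp1r15a. For the chaperone Hspa5 it was 163.1 ± 88.4 and 154 ± 103, and for Calr 162.7 ± 97.7 and 169 ± 104. This contrast depends on the X-coded LPS-ALI libraries. Without them the relative difference went from -0.97 to -0.39 for Atf4 and from -1.48 to -0.55 for Ppp1r15a. For Hspa5 it went from -0.18 to -0.81, and for Calr from 0.15 to -0.61. None of the 31 members passed limma's test across all genes at an adjusted p of 0.05 (adjusted p = 0.998 for each), and neither did any of the 11817 tested genes (0%). At an unadjusted limma p under 0.05, 4 of 31 members were lower in TMAO lungs, Ppp1r15a, Ddit4, Atf4 and Herpud1, against 2.93% of all tested genes. In the other direction there were 0 of 31 members, against 0.423% of all genes. The imbalance over all genes depends on the scaling: 346 genes were lower and 50 higher with FPKM as deposited, 437 and 362 under median-of-ratios scaling (3.7% and 3.06%), and 450 and 441 under quantile normalization (3.81% and 3.73%). Under these scalings 6 and 5 members were lower, and 0 higher. The FPKM of the groups did not overlap for 3 of 31 members, Ppp1r15a, Ddit4 and Herpud1, all lower in TMAO, against 1.36% of all genes. No member was without overlap in the higher direction, against 0.118% of all genes. On the scale of distance from each library's median gene, 3 members again did not overlap, but they were Atf4, Ddit4 and Psat1, all lower, against 1.7% of all genes, and 0 were higher, against 1.72%. All 31 members passed the filter of at least 1 FPKM in 4 libraries.

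**Figure D2:**
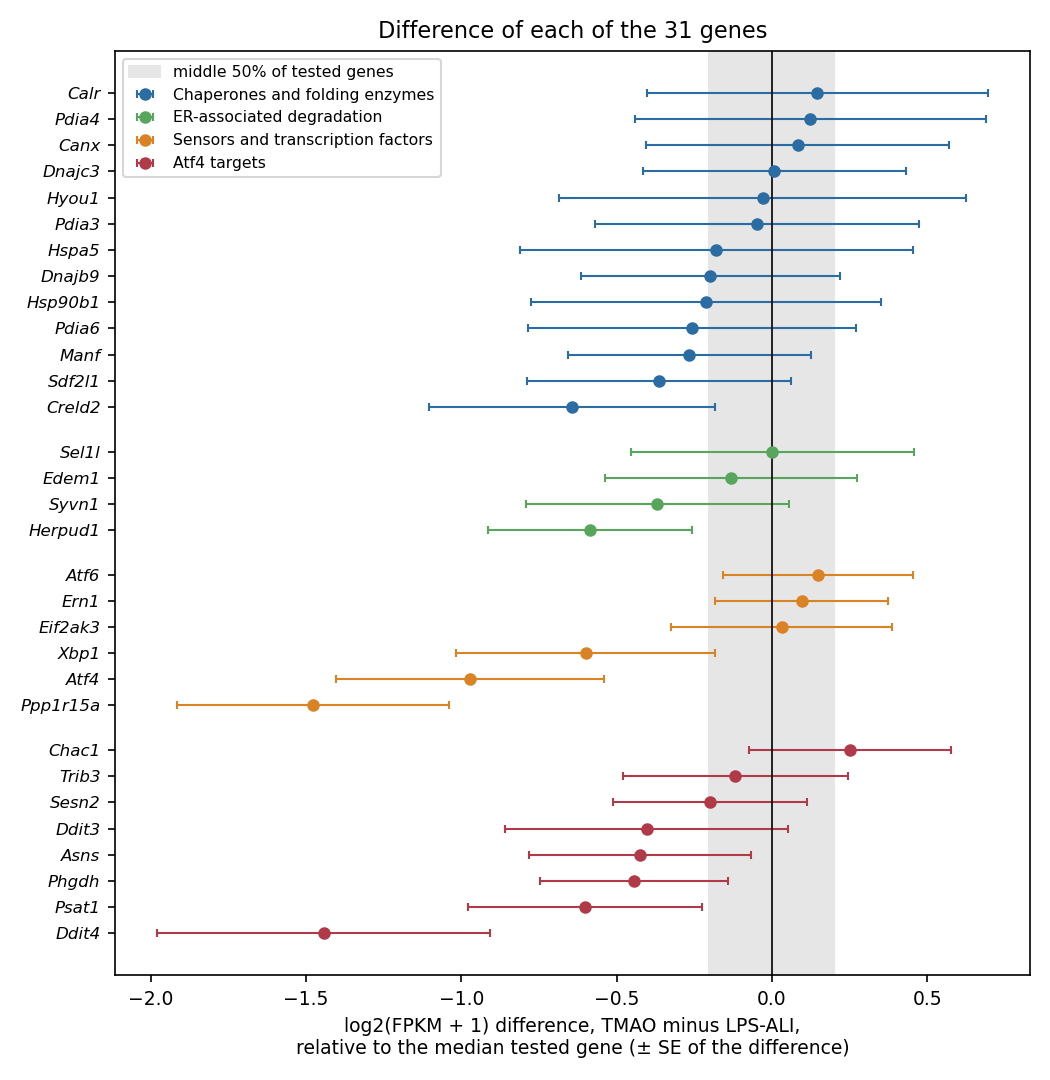
Relative log2 difference of each member, TMAO minus LPS-ALI, with the standard error of the log2 difference as bars, coloured by role and ordered within role. The range from the lower to the upper quartile of all tested genes is shaded, and Ppp1r15a (-1.48), Ddit4 (-1.44) and Atf4 (-0.97) lie farthest below 0.

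Relative to the median gene, 22 of 31 members lay lower in TMAO lungs, as 5908 of 11817 genes do by construction, and the median member lay at -0.20. The quartiles of all genes were -0.20 and 0.20. The 8 Atf4 targets had a median of -0.41 with 7 of 8 below the median gene. The 17 genes of ER folding and degradation had a median of -0.18 with 12 of 17 below it. Within these, the 13 chaperones had a median of -0.18 (9 of 13 below) and the 4 degradation genes -0.25 (3 of 4 below). The 6 sensors and transcription factors had a median of -0.28 and ran from -1.48 for Ppp1r15a to 0.15 for Atf6, and the Atf4 targets ran from -1.44 for Ddit4 to 0.25 for Chac1. These medians describe the lists, which were not tested as sets.

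Ppp1r15a (GADD34, ENSMUSG00000040435; chromosome 7, 45522916 to 45526268, minus strand, in GENCODE M21 on GRCm38, like the gene positions that follow) encodes the regulatory subunit that directs a phosphatase to eIF2 and so ends the response. Its FPKM in LPS-ALI replicates 1 to 4 was 35.39, 41.08, 134.79 and 130.03. In TMAO replicates 1 to 5 it was 21.58, 27.40, 22.07, 28.99 and 13.79. The groups did not overlap, and the LPS-ALI lungs fell into a lower pair, replicates 1 and 2, and a higher pair with the X code, replicates 3 and 4. The relative difference was -1.48 ± 0.44 (SE), and the exact two-sided permutation p was 0.00794, the smallest that 4 against 5 libraries can give. The limma p was 0.00189 before adjustment. On the scale of distance from each library's median gene, TMAO replicate 5 and LPS-ALI replicate 1 both lay at 2.15, so that the groups just overlapped there, and the exact permutation p was 0.0159. Without the X-coded libraries the relative difference was -0.55, without overlap in FPKM, and the exact permutation p was 0.0952. The size of the difference therefore differed by over 1.5 times with and without these libraries, while the direction did not.

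Atf4 (chromosome 15, 80255184 to 80257541, plus strand) is the transcription factor at the centre of the integrated stress response. Its activity is largely set by translation, which RNA levels do not show. Its FPKM was 128.94, 139.53, 174.71 and 454.38 under LPS-ALI and 80.46, 99.34, 110.99, 144.95 and 40.05 under TMAO. LPS-ALI replicate 4 stood far above the rest, and TMAO replicate 4 lay between LPS-ALI replicates 2 and 3, so the groups overlapped. The relative difference was -0.97 ± 0.43 (SE; exact permutation p = 0.0317). It was -0.60 without LPS-ALI replicate 4 (exact permutation p = 0.143) and -0.39 without both X-coded libraries (exact permutation p = 0.333). When each library was first expressed as its distance from its own median gene, Atf4 lay at 3.98 to 5.85 log2 units under LPS-ALI and 3.60 to 3.96 under TMAO, with no overlap. The exact permutation p on that scale was 0.00794.

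Xbp1 (chromosome 11, 5520659 to 5525893, plus strand), the factor whose transcript Ern1 splices, had 48.92, 51.98, 45.97 and 105.75 FPKM in LPS-ALI lungs. The TMAO lungs had 34.64, 51.42, 37.62, 52.32 and 13.47 FPKM. LPS-ALI replicate 4 was again the highest, and the other values overlapped. The relative difference was -0.60 ± 0.42 (SE; exact permutation p = 0.119), -0.36 without that library (exact permutation p = 0.375) and -0.32 without both X-coded libraries (exact permutation p = 0.524). On the scale of distance from each library's median gene, with all 9 libraries, the exact permutation p was 0.0238, and TMAO replicate 2, at 2.69, lay above LPS-ALI replicate 1, at 2.60. Gene-level FPKM does not separate spliced from unspliced Xbp1.

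The 3 sensors themselves had low levels, with overlapping groups. Eif2ak3 had 3.12, 1.56, 2.12 and 1.02 FPKM under LPS-ALI and 1.53, 2.40, 2.07, 2.57 and 0.25 under TMAO (relative difference 0.03 ± 0.36, SE; exact permutation p = 0.746), and its relative difference was -0.11 without the X-coded libraries. The value of TMAO replicate 5 stands for about 6.46 reads. Atf6 ranged from 1.46 to 3.29 FPKM under LPS-ALI and from 1.07 to 2.93 under TMAO, and Ern1 from 0.97 to 1.69 and from 0.38 to 1.81. Their relative differences were 0.15 and 0.10, and 0.45 and 0.27 without the X-coded libraries.

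**Figure D3:**
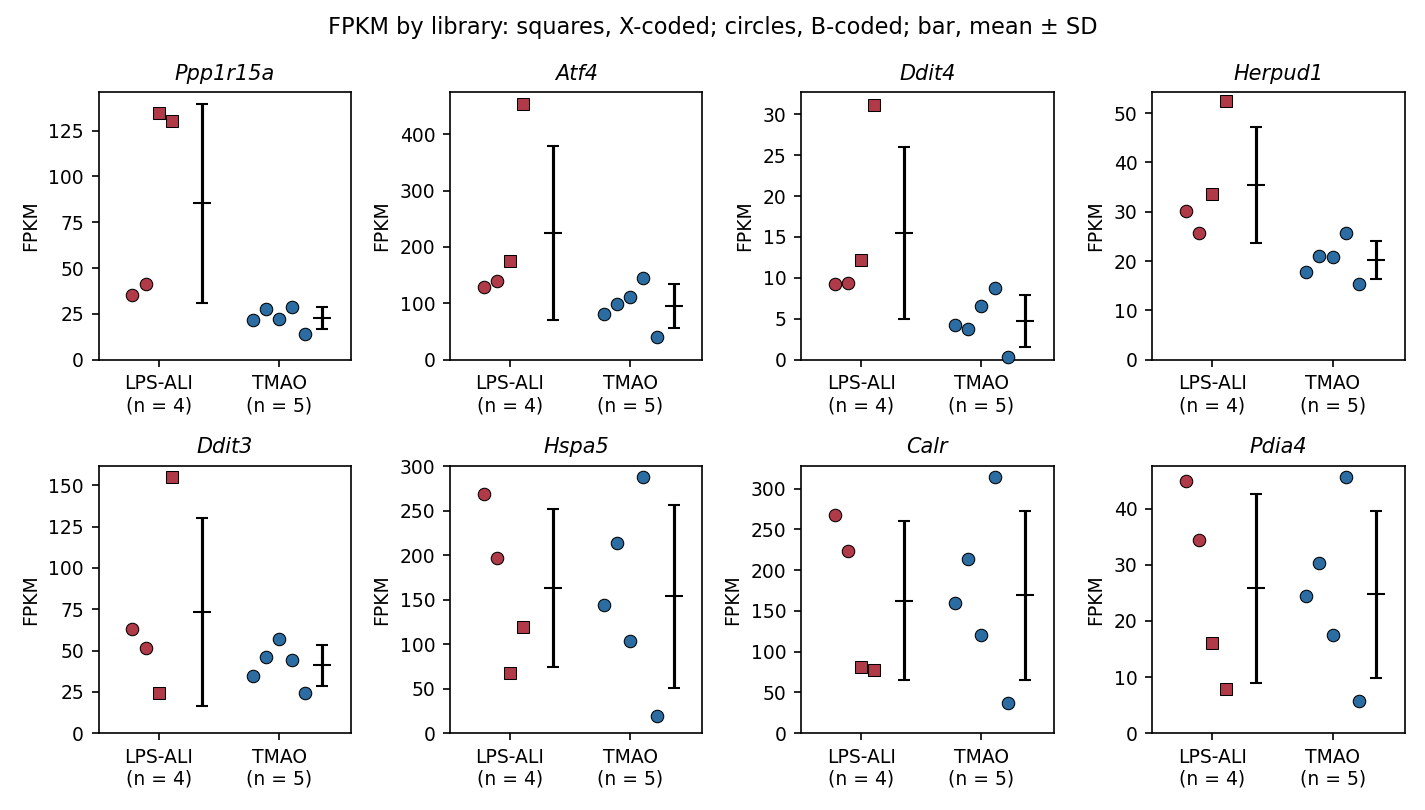
FPKM of 8 members in each library on linear axes that start at 0, with LPS-ALI in red, TMAO in blue, X-coded libraries as squares, B-coded ones as circles and the mean ± SD of each group as a bar. Ppp1r15a, Ddit4 and Herpud1 show no overlap between groups, and LPS-ALI replicate 4 is the highest point for Atf4 (454.38), Ddit3 (155.13) and Ddit4 (31.18).

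Ddit4 (REDD1; chromosome 10, 59949669 to 59951834, minus strand) encodes an inhibitor of mTORC1 and is known to respond to Atf4, hypoxia and glucocorticoids. It had 9.25, 9.39, 12.21 and 31.18 FPKM under LPS-ALI and 4.21, 3.75, 6.55, 8.70 and 0.36 under TMAO. The groups did not overlap, but the lowest LPS-ALI value, 9.25, lay close to the highest TMAO value, 8.70. The value of TMAO replicate 5 corresponds to an estimated 2.71 reads. The relative difference was -1.44 ± 0.54 (SE; exact permutation p = 0.0159, and 0.00794 on the scale of distance from each library's median gene) and -0.90 without the X-coded libraries (exact permutation p = 0.190). With any single library left out, the relative difference stayed between -1.65 and -1.10 and the groups did not overlap.

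Psat1 (chromosome 19, 15904678 to 15947337) and Phgdh (chromosome 3, 98313170 to 98339990) encode enzymes of serine synthesis. Psat1 had 3.17, 2.62, 3.04 and 8.56 FPKM under LPS-ALI and 2.20, 2.82, 2.23, 2.09 and 0.62 under TMAO. Its groups overlapped by 1 value, TMAO replicate 2, and LPS-ALI replicate 4 was far above the others. The relative difference was -0.60 ± 0.38 (SE; exact permutation p = 0.0238), -0.32 without that library (exact permutation p = 0.125) and -0.22 without both X-coded libraries (exact permutation p = 0.333). On the scale of distance from each library's median gene the groups of Psat1 did not overlap, the nearest values being -1.02 and -1.04. The exact permutation p was 0.00794. The -1.04 belongs to TMAO replicate 5, at 0.62 FPKM, where the 1 added before the log2 limits how low a value can lie. Phgdh had 1.28, 2.28, 1.63 and 3.16 FPKM under LPS-ALI and 0.84, 0.60, 1.82, 1.46 and 0.44 under TMAO (relative difference -0.44 ± 0.30, SE; exact permutation p = 0.0714). The last of these values stands for about 4.69 reads. Without the X-coded libraries the relative difference of Phgdh was -0.26 (exact permutation p = 0.238).

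Asns (chromosome 6, 7675169 to 7693254), the asparagine synthetase gene with the CARE match printed above, had 9.83, 8.50, 5.05 and 12.43 FPKM in LPS-ALI lungs. The TMAO values were 5.12, 5.60, 5.75, 7.56 and 3.38. LPS-ALI replicate 3 was the only LPS-ALI library within the TMAO range, and the relative difference was -0.42 ± 0.36 (SE; exact permutation p = 0.0794). Unlike that of Ppp1r15a, the relative difference of Asns was no smaller without the X-coded libraries, at -0.46.

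The cell death and redox targets did not follow 1 pattern. Ddit3 (CHOP), a transcription factor linked to death under lasting ER stress, had 63.22, 51.63, 24.04 and 155.13 FPKM under LPS-ALI and 34.47, 45.88, 57.02, 44.08 and 24.19 under TMAO (relative difference -0.40, and 0.02 without LPS-ALI replicate 4). LPS-ALI replicate 3 was the lowest of the 9 libraries and replicate 4 the highest. Exons of Ddit3 overlap those of Mars1 on the other strand, at a mean of 9.70 FPKM, and the strand setting of the counting is not given. Trib3, a pseudokinase that restrains Atf4 and Ddit3, had 0.85 to 1.20 FPKM in LPS-ALI replicates 1 to 3, 4.86 in replicate 4 and 0.58 to 1.97 in TMAO lungs (relative difference -0.12, and 0.22 without LPS-ALI replicate 4). Sesn2, a stress-induced inhibitor of mTORC1, had 1.75 to 3.50 and 0.84 to 2.65 FPKM (relative difference -0.20). Chac1, which degrades glutathione, was the member farthest in the other direction, at a relative difference of 0.25. It had 0.69 to 1.39 FPKM under LPS-ALI and 1.04 to 2.07 in TMAO replicates 1 to 4. It was listed at 0 in TMAO replicate 5, where 3 reads would give 0.43 FPKM. With levels near 1 FPKM, the values of Chac1 and Trib3 rest on few reads, 6.21 for Chac1 in LPS-ALI replicate 1, for example.

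The most abundant chaperones varied widely among lungs of the same group. Hspa5 (BiP; chromosome 2, 34771970 to 34777547), the ER Hsp70 that also holds the sensors inactive, had 269.03, 196.55, 67.08 and 119.61 FPKM in LPS-ALI lungs. The TMAO lungs had 144.30, 213.58, 103.49, 287.42 and 19.21 FPKM. Both groups spanned a wide range and overlapped, with a relative difference of -0.18 ± 0.63 (SE; exact permutation p = 0.746). Hsp90b1 (GRP94), the ER Hsp90, had 219.00, 167.36, 107.12 and 66.10 FPKM under LPS-ALI and 126.01, 158.75, 97.14, 212.44 and 20.50 under TMAO. Its relative difference was -0.21 ± 0.56 (SE), and in LPS-ALI the X-coded pair again lay below the B-coded pair. The lectin chaperones were likewise lower in the X-coded pair. Calr (calreticulin) had 267.71, 223.98, 80.92 and 78.00 FPKM under LPS-ALI and 37.55 to 314.69 under TMAO, and Canx (calnexin) 30.96 to 81.62 and 13.67 to 92.83. Their relative differences were 0.15 and 0.08.

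The disulfide isomerases Pdia3, Pdia4 and Pdia6, which form and rearrange disulfide bonds, ordered the LPS-ALI lungs in the same way. Pdia4 had 44.93, 34.36, 16.02 and 7.90 FPKM under LPS-ALI and 24.45, 30.39, 17.55, 45.72 and 5.77 under TMAO. Pdia3 ranged from 50.36 to 171.41 and from 22.21 to 156.19 FPKM, and Pdia6 from 23.86 to 86.41 and from 10.51 to 79.12. The relative differences were 0.12 for Pdia4, -0.05 for Pdia3 and -0.26 for Pdia6. Hyou1, the ER Hsp110 that exchanges nucleotide on Hspa5, had 5.93 to 21.88 and 0.78 to 29.18 FPKM (relative difference -0.03). Dnajc3, a co-chaperone of Hspa5, had 8.76 to 15.07 and 3.33 to 17.73 FPKM (relative difference 0.01).

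Creld2, an ER-stress-induced protein with disulfide isomerase activity, lay lowest among the chaperone class at a relative difference of -0.64 ± 0.46 (SE; exact permutation p = 0.143). It had 25.40, 18.95, 25.85 and 13.30 FPKM under LPS-ALI and 12.79, 18.58, 10.36, 19.75 and 3.02 under TMAO. Unlike most chaperones it was not lower in LPS-ALI replicate 3, where it had its highest value. Sdf2l1, a partner of the Hspa5 co-chaperones, had 15.39, 12.62, 9.09 and 10.51 FPKM under LPS-ALI and 5.93, 12.50, 9.03, 14.12 and 2.67 under TMAO (relative difference -0.36 ± 0.42, SE; exact permutation p = 0.270). Manf, a secreted ER-resident protein, had 122.04, 125.37, 79.42 and 120.60 FPKM under LPS-ALI and 87.40, 139.19, 74.32, 116.76 and 32.99 under TMAO (relative difference -0.27 ± 0.39, SE; exact permutation p = 0.397). All 3 had their lowest value in TMAO replicate 5, and without it Manf was at -0.17. Sdf2l1 was at -0.55 without the X-coded libraries. Dnajb9 (ERdj4), a target of Xbp1, had 21.65, 15.75, 10.05 and 29.46 FPKM under LPS-ALI and 13.46, 20.50, 14.94, 18.90 and 5.85 under TMAO (relative difference -0.20 ± 0.42, SE; exact permutation p = 0.429). Dnajb9 was the 1 chaperone highest in LPS-ALI replicate 4, and its relative difference was -0.0069 without that library and -0.39 without LPS-ALI replicate 3.

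Of the degradation genes, which return misfolded proteins to the cytosol for the proteasome, Herpud1 (chromosome 8, 94386438 to 94395377) was the one without overlap. It had 30.11, 25.69, 33.52 and 52.43 FPKM under LPS-ALI and 17.83, 21.11, 20.76, 25.64 and 15.34 under TMAO. The margin between the groups was narrow, 25.69 against 25.64. The relative difference was -0.59 ± 0.33 (SE; exact permutation p = 0.0159), and -0.25 without the X-coded libraries (exact permutation p = 0.0952). On the scale of distance from each library's median gene, TMAO replicate 5, at 2.29, lay within the LPS-ALI range of 1.86 to 2.76. The exact permutation p there was 0.0714. Herpud1 scaffolds the ligase complex at the ER membrane and, in these windows, was the member with motifs of both arms.

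The core of that complex is the ligase Syvn1 (HRD1) with its adaptor Sel1l. Sel1l had 9.14, 18.14, 16.75 and 4.06 FPKM under LPS-ALI and 9.54, 9.71, 7.87, 18.29 and 4.78 under TMAO (relative difference 0.00 ± 0.46, SE, and -0.23 without the X-coded libraries). Syvn1 had 3.46, 3.22, 7.16 and 2.92 FPKM under LPS-ALI and 2.10, 3.98, 2.08, 5.48 and 0.50 under TMAO (relative difference -0.37 ± 0.42, SE; exact permutation p = 0.294). LPS-ALI replicate 3 was its highest library, and without it the relative difference was -0.067, and -0.13 without both X-coded libraries. Syvn1 overlaps Mrpl49, a mitochondrial ribosome gene on the other strand with the higher mean of 8.83 FPKM, so part of its reads cannot be assigned with certainty. Edem1, which extracts misfolded glycoproteins from the folding cycle, had 5.01, 5.45, 7.51 and 6.84 FPKM under LPS-ALI and 7.19, 6.03, 5.86, 6.20 and 1.29 under TMAO (relative difference -0.13 ± 0.40, SE; exact permutation p = 0.706). Its values were close in 8 libraries and low in TMAO replicate 5, without which the relative difference was -0.014. It was 0.016 without LPS-ALI replicate 3 and 0.11 without both X-coded libraries.

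Within the LPS-ALI group, chaperones were lower in the X-coded libraries, while sensors and transcription factors, and in replicate 4 also the Atf4 targets, were mostly higher. Of the 13 chaperones, 11 were lower in both X-coded libraries, replicates 3 and 4, than in both B-coded libraries, against 26.2% of all tested genes. None of the 13 was higher in both, against 12.5% of all genes. Replicate 4 alone was below both B-coded libraries for 12 of 13 chaperones, against 37.6% of all genes. Of the 6 sensors and transcription factors, 4 were higher in both X-coded libraries and none was lower in both, and of the 8 Atf4 targets 1 was higher in both and none lower in both. Replicate 4 was the highest of all 9 libraries for 6 of 8 Atf4 targets and 1 of 13 chaperones, against 26.9% of all genes. Among the 4 LPS-ALI libraries alone it was the highest for 7 of 8 Atf4 targets and 1 of 13 chaperones. The share of all genes was not counted for this last comparison, so it cannot be read as a trait of the members. This division was seen in 2 libraries that share a code, and it was chosen for description after the values were seen.

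**Figure D4:**
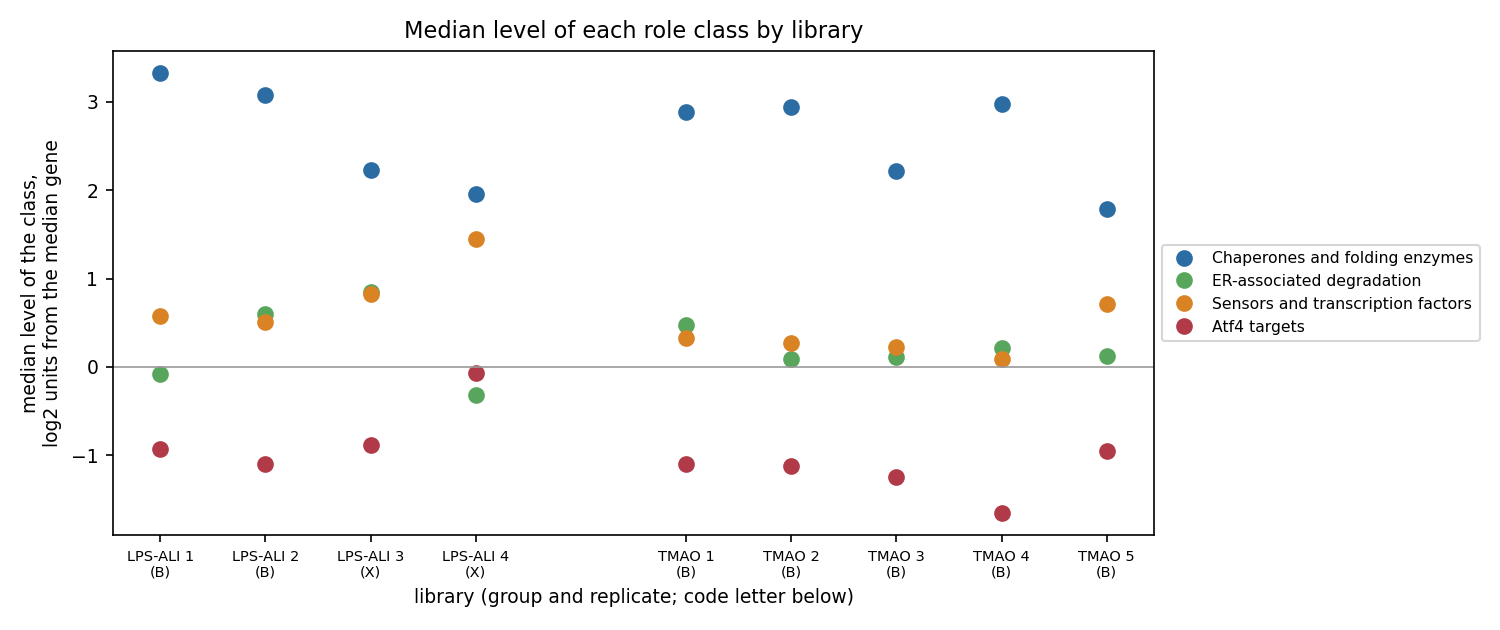
Median level of each role class in each library, in log2 units from the library's median gene. The chaperones are lowest in the X-coded LPS-ALI libraries and in TMAO replicates 3 and 5 (1.78 to 2.23), and the Atf4 targets are highest in LPS-ALI replicate 4 (-0.07).

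The median chaperone lay 3.33, 3.08, 2.23 and 1.95 log2 units above the median gene in LPS-ALI replicates 1 to 4. In TMAO replicates 1 to 5 it lay 2.89, 2.94, 2.21, 2.98 and 1.78 above it. The median Atf4 target lay at -0.92, -1.09, -0.88 and -0.07 under LPS-ALI and at -1.10, -1.12, -1.25, -1.65 and -0.95 under TMAO. On this scale TMAO replicate 4 had the highest chaperone median of its group and the lowest Atf4 target median of the 9 libraries. For low genes the added 1 sets a floor, which lies farther down where the library's median gene is higher. That median gene lay at 3.35 log2 units in TMAO replicate 4 and 1.74 in TMAO replicate 5. Chac1 thus lay at -2.32 in TMAO replicate 4, with 1.04 FPKM, but at -1.74 in TMAO replicate 5, at 0. In FPKM, 6 of 8 Atf4 targets were lowest in TMAO replicate 5 and 1 in TMAO replicate 4. TMAO replicate 5 had the lowest FPKM of all 9 libraries for 28 of 31 members and 13 of 13 chaperones, where 74.3% of all genes did. Counted from each library's median gene, it was the lowest for 10 of 31 members and 7 of 13 chaperones, against 18.3% of all genes.

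Ratios within a library need no scaling between libraries. For Atf4 and Ppp1r15a they showed the division between X-coded and B-coded LPS-ALI lungs. For Ddit3 LPS-ALI replicate 3 lay near the B-coded lungs, and only replicate 4 stood apart. The ratios are formed from the same FPKM values and add no separate support. The FPKM of Atf4 over that of Hspa5 was 0.479 and 0.71 in the B-coded LPS-ALI lungs, and 2.60 and 3.80 in the X-coded ones. In TMAO lungs it was 0.558, 0.465, 1.07, 0.504 and 2.08. Ppp1r15a over Hspa5 was 0.132, 0.209, 2.01 and 1.09 under LPS-ALI and 0.150, 0.128, 0.213, 0.101 and 0.718 under TMAO. Ddit3 over Hspa5 was 0.235, 0.263, 0.358 and 1.30, and 0.239, 0.215, 0.551, 0.153 and 1.26. The ratios of TMAO replicates 1, 2 and 4 were thus near those of the B-coded LPS-ALI lungs, and LPS-ALI replicate 4 and TMAO replicate 5 had high ratios for all 3 genes. As a ratio between chaperones, Calr over Hspa5 was 0.652 to 1.21 under LPS-ALI and 1.00 to 1.95 under TMAO.

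Markers of alveolar type 2 cells and of capillary endothelium broadly moved with the chaperones across these libraries. Those of several other cell types did so in part, and those of plasma cells did not. The summed FPKM of the alveolar type 2 markers Sftpc, Sftpb, Sftpa1, Lamp3, Abca3 and Napsa was 14077, 12247, 7475 and 1090 in LPS-ALI replicates 1 to 4. It was 7157, 10454, 6572, 9209 and 4780 in TMAO replicates 1 to 5, and none of the 6 markers was at 0 in any library. It was thus lowest in LPS-ALI replicate 4 and in TMAO replicate 5, which also had the lowest chaperone medians. The summed capillary endothelium markers had 705, 824, 401 and 584 FPKM in LPS-ALI replicates 1 to 4. In TMAO replicates 1 to 5 they had 850, 863, 670, 1322 and 312 FPKM. Their sum was thus also lowest in TMAO replicate 5 and lower in the X-coded than in the B-coded LPS-ALI lungs. Neutrophil markers summed to 20498, 16250, 13811 and 7466 FPKM in LPS-ALI replicates 1 to 4, and club cell markers to 30645, 23158, 10195 and 15339. In TMAO replicate 5, however, these sums were the highest of the TMAO group, 14672 and 17267. Fibroblast and macrophage sums were lowest of all in TMAO replicate 5, at 32.7 and 66.7. They were not lower in both X-coded than in both B-coded lungs. The sum of 7 plasma cell markers was 34.8, 26.0, 87.4 and 59.0 FPKM in LPS-ALI replicates 1 to 4. It was highest in the X-coded pair, where the chaperones were low, and was 9.20 to 25.1 under TMAO. Igkc, Igha and Ighm reached 54.3, 22.7 and 8.56 FPKM, so the sum rests largely on them. Jchain, Mzb1, Derl3 and Tnfrsf17 reached at most 4.25, 1.9, 2.43 and 0.23 FPKM. Jchain was at 0 in 2 libraries, Mzb1 and Derl3 in 3 each, and Tnfrsf17 in 8 of 9. LPS-ALI replicate 4, with the high Atf4, Xbp1, Ddit4, Psat1 and Trib3 values, stood apart in other markers too. Its 3 erythroid markers summed to 1537 FPKM, against 74.3 to 184 in the other 8 libraries, its 4 monocyte markers to 444, against 134 to 230, and its 4 ciliated cell markers to 35.1, against 2.95 to 18.8. Its 6 neutrophil markers had the lowest sum of the 9 libraries, 7466 FPKM, against 7639 to 20498. The part of cell makeup in the members' levels was not tested.

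Without the X-coded libraries the order of the classes was the other way round. Then 13 of 13 chaperones lay below the median gene in TMAO lungs, with a median relative difference of -0.63, against -0.18 with all libraries. Pdia6 was at -0.82, Hspa5 at -0.81, Hsp90b1 at -0.76 and Calr at -0.61, and the other 9 lay between -0.71 (Creld2) and -0.14 (Dnajc3). The Atf4 targets had a median of -0.24, with 6 of 8 below the median gene. No member had an unadjusted limma p under 0.05, against 185 of 11817 tested genes in either direction. Without LPS-ALI replicate 4 alone, the chaperone median was -0.33 and that of Atf4 targets -0.24. Without LPS-ALI replicate 1 alone the chaperone median was 0.080, with 5 of 13 below the median gene. Without TMAO replicate 5 alone, the chaperone median was 0.14, with 5 of 13 below the median gene and Hspa5 at 0.23, and the Atf4 target median was -0.48. The sign of the chaperone median thus rests on which libraries were used, whereas the Atf4 target median was below 0 in each of these settings.

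**Figure D5:**
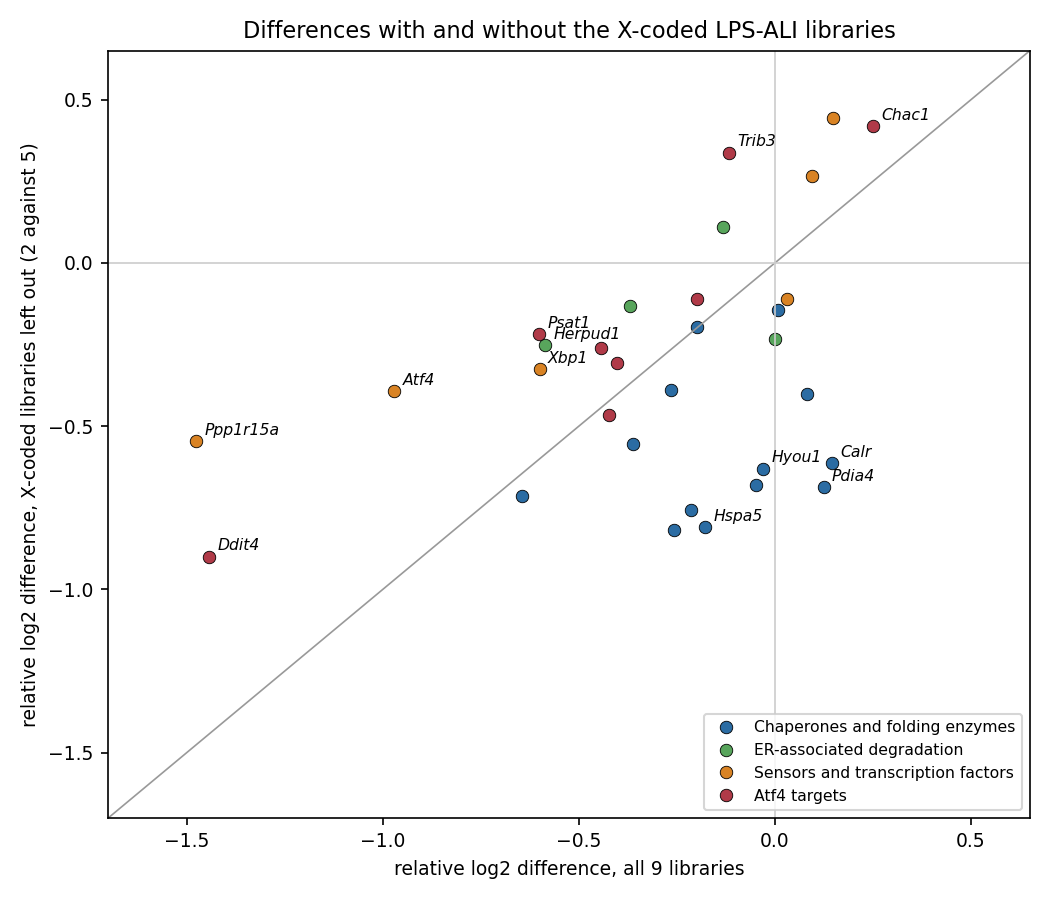
Relative log2 difference of each member with all 9 libraries (horizontal) and without the X-coded LPS-ALI libraries (vertical), coloured by role. The chaperones lie below the diagonal or on it, all under 0 on the vertical axis, and Ppp1r15a moves from -1.48 to -0.55.

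Neighbouring parts of the pathway were described in the same way, from lists of other genes. Cytosolic tRNA synthetases, many of them Atf4 targets, lay below the median gene in TMAO lungs in 18 of 20 cases, with a median relative difference of -0.24. Vars had 7.46 ± 1.99 FPKM under LPS-ALI and 4.09 ± 2.94 under TMAO, and Tars 11.99 ± 5.50 and 7.43 ± 4.43. These TMAO means include TMAO replicate 5, the library with the lowest FPKM for 74.3% of all genes. There Vars was listed at 0 and Tars at 0.68 FPKM. In the other TMAO lungs Vars had 3.14 to 8.09 FPKM, against 5.79 to 10.13 under LPS-ALI. In those same TMAO lungs Tars had 5.11 to 10.88, against 7.38 to 18.54 under LPS-ALI. Other Atf4 targets lay below the median gene in 13 of 18 cases (median -0.19). Among them Mthfd2, a mitochondrial enzyme of folate metabolism, had 4.33, 6.32, 4.31 and 17.05 FPKM under LPS-ALI and 3.14, 2.43, 4.03, 2.76 and 0.45 under TMAO, without overlap (relative difference -1.08). As with Psat1, LPS-ALI replicate 4 was the highest. Cebpb, a partner of Atf4 and Ddit3, had 176 ± 31.1 and 107 ± 39.5 FPKM (relative difference -0.61). None of the genes in these lists passed the limma test after adjustment (adjusted p = 0.998 for each gene named here).

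Genes that act on eIF2 lay near the median gene, with 10 of 17 below it and a median of -0.09, which was 0.017 without the X-coded libraries. Ppp1r15b, the constitutive counterpart of Ppp1r15a, had 12.50, 12.52, 12.61 and 14.42 FPKM under LPS-ALI and 8.19, 11.16, 7.96, 12.64 and 3.24 under TMAO (relative difference -0.47). It lacked the step between B-coded and X-coded lungs that Ppp1r15a had. Eif2s2, a subunit of eIF2, had 44.6 ± 22.8 and 27.0 ± 8.47 FPKM (relative difference -0.50). Other factors of the Atf and Creb3 families lay below the median gene in 8 of 14 cases (median -0.09) and, without TMAO replicate 5, in 4 of 14 (median 0.044), Creb3l1 with 4.49 ± 1.53 and 2.64 ± 1.46 FPKM among them. Genes of ER stress-induced death lay below it in 9 of 14 cases (median -0.24). Of these, the death receptor gene Tnfrsf10b had 3.24 ± 2.19 and 1.37 ± 0.53 FPKM, and Casp4 32.7 ± 15.2 and 18.5 ± 6.74.

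With all libraries, the rest of the secretory pathway lay close to the median gene. The translocon and signal peptidase lay slightly but widely below it, in 21 of 23 cases with a median of -0.15, such as Sec11c with 42.7 ± 6.63 and 31.1 ± 5.27 FPKM. For COPII export the count was 12 of 18 (median -0.14) and for other degradation genes 14 of 21 (median -0.07). N-glycosylation genes were evenly divided, 8 of 16 below (median -0.01). Other disulfide isomerases and oxidases lay below it in 7 of 19 cases (median 0.12) and ER calcium genes in 5 of 13 (median 0.13). These last 3 lists shifted when LPS-ALI replicate 4 was left out: without it, 14 of 16 N-glycosylation genes (median -0.23), 14 of 19 isomerases and oxidases (median -0.11) and 9 of 13 calcium genes (median -0.05) lay below the median gene. In the calcium list Nucb2 had 41.1 ± 5.39 and 25.0 ± 12.8 FPKM (relative difference -0.74). Itpr2, a calcium release channel, went the other way with 0.87 ± 0.36 and 2.02 ± 0.97 FPKM (relative difference 0.82), its highest value, 3.48, being in TMAO replicate 5. These lists had 0 genes past the adjusted limma threshold in either direction.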

How the data were processed

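RNA of 9 mouse lungs, 4 LPS-ALI and 5 TMAO by the labels' sample group and title, was depleted of ribosomal RNA and sequenced from NEBNext Ultra II libraries, per the labels' protocols. The submitters' processing notes list fastp, HISAT2, SAMtools and featureCounts without versions, and mm10. Neither these notes nor the labels give the annotation, the strand setting or the gene lengths behind the FPKM. The authors deposited FPKM per gene and library, rounded, without pooling. Since FPKM are not counts, log2(FPKM + 1) was tested over 11817 genes with at least 1 FPKM in at least 4 libraries. The two-sided test was limma-trend (limma 3.58.1 in R 4.3.3), with p-values adjusted by Benjamini-Hochberg and called at 0.05. Members named in full also had an exact two-sided permutation test over the 126 ways to divide the libraries into 4 and 5, and these p-values are unadjusted. The p-values rest on the spread between mice within each group. Under LPS-ALI this spread also holds any difference between X-coded and B-coded libraries. No TMAO library has the X code, so such a difference can also enter the group difference.

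The members and lists were chosen with earlier results of these data known. Full values were given for the 4 members with the smallest unadjusted p in each role class and for every member without overlap, 16 in all, and from each other list the genes named are among the 2 with the smallest p. Values of other members, and the comparison of X-coded with B-coded LPS-ALI libraries, were added after the data were seen. Identifiers were matched to GENCODE M21 (52125 of 52381), on GRCm38, the same assembly as mm10. Read numbers were estimated from the spacing of low FPKM and exon lengths, so they are approximate. The script was tested on simulated data. Motifs were exact letters on both strands of RefSeq windows, of which 25 of 29 for members matched the start of a GENCODE transcript. Alternatives were other pseudocounts, filters, scalings, variance models and a replicate block, and leaving out libraries. Same-numbered mice are separate animals, and the numbers do not pair them. Tables and figures used Python 3.11.15, pandas 2.3.3 and matplotlib 3.10.9.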

Additional observations from a re-analysis of the deposited data

Results flagged for a closer look

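Each of the 31 members was examined in both groups, 62 groups of values in all, for a highest or lowest library that stood far from the nearest other one relative to the group's range (Dixon's 95% limit). In all, 8 were marked, 5 of them for LPS-ALI replicate 4, 2 for LPS-ALI replicate 3 and 1 for TMAO replicate 5. The limit marks about 1 in 20 groups by chance if values are independent and normally spread. All members were read in the same 9 libraries, so 1 unusual lung can mark many of them. Normal spread of the FPKM was not checked. The 8 marked groups therefore cannot be compared with 1 in 20. In LPS-ALI replicate 4 the high values were Atf4 at 454.38 FPKM (next 174.71), Xbp1 at 105.75 (next 51.98) and Ddit4 at 31.18 (next 12.21). The same library had Psat1 at 8.56 FPKM (next 3.17) and Trib3 at 4.86 (next 1.20). In LPS-ALI replicate 3, Manf was low at 79.42 FPKM (next 120.60) and Syvn1 high at 7.16 (next 3.46). In TMAO replicate 5, where 28 of 31 members had their lowest FPKM, Edem1 was low at 1.29 FPKM (next 5.86).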

How the results depend on the processing

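In each of the 25 alternatives run, 0 of 31 members passed the adjusted limma threshold, and 16 members kept the sign of their relative difference, among them Ppp1r15a (-1.85 to -0.55), Ddit4 (-1.77 to -0.87), Atf4 (-1.21 to -0.39) and Herpud1 (-0.72 to -0.25). The 4 members lower at an unadjusted limma p under 0.05 became 9 with library weights, 0 without the X-coded libraries, and 2 to 5 with 1 library left out. Of all 11817 tested genes, 396 had such a p in either direction, and 1634 did with library weights. The number was 185 without the X-coded libraries and 242 to 860 with 1 library left out. The changes in the member counts therefore cannot be read as a trait of the members. Over all genes, 51 passed the adjusted threshold with library weights, 1 when LPS-ALI replicate 3 was left out and 3 when TMAO replicate 4 was, none of them a member. With a mean FPKM of at least 5, which only 3 of 6 sensors and transcription factors reached, their median relative difference was -0.94 in place of -0.28. Same-numbered mice did not deviate together (correlations 0.06, -0.01, -0.03 and -0.13). With the replicate block 4 members had an unadjusted limma p under 0.05, against 746 of 11817 tested genes in either direction. Since TMAO replicate 5 has no partner, the estimates with the block equal those without that library. The planned look at protein ends was not run for want of a protein table. Low depth limits Ddit4, Chac1, Phgdh and Eif2ak3 in TMAO replicate 5 most.

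In 78 of 766 pairs of member and alternative the sign of the relative difference changed, over 15 members, and the cause was not tested. The changed values with the replicate block were Hspa5 0.23, Hsp90b1 0.12, Pdia3 0.17, Hyou1 0.39 and Sel1l -0.012. Without both LPS-ALI replicate 4 and TMAO replicate 5, these were Hspa5 0.10, Dnajb9 0.044, Pdia4 -0.16, Hyou1 0.084, Sel1l -0.45 and Eif2ak3 -0.13. With no filter, these were Dnajc3 -0.11, Canx -0.036, Sel1l -0.12, Ern1 -0.024 and Eif2ak3 -0.087. Without the X-coded libraries, these were Dnajc3 -0.14, Pdia4 -0.69, Calr -0.61, Canx -0.40, Sel1l -0.23, Edem1 0.11, Eif2ak3 -0.11 and Trib3 0.34. With a pseudocount of 0.1, these were Pdia3 0.012 and Eif2ak3 -0.089. Under median-of-ratios scaling, these were Pdia3 0.017 and Eif2ak3 -0.089. Under quantile normalization, these were Pdia3 0.0017, Sel1l -0.015 and Eif2ak3 -0.033. With library weights, these were Pdia4 -0.39, Calr -0.31, Canx -0.12, Sel1l -0.60, Edem1 0.15 and Trib3 0.14. With a mean FPKM of at least 5, this was Hyou1 0.0024. As TPM, these were Hyou1 0.0053 and Sel1l -0.0050. With 1 library left out, the values ranged for Hspa5 from -0.48 to 0.23, for Hsp90b1 from -0.56 to 0.12, for Dnajc3 from -0.057 to 0.14, for Pdia3 from -0.36 to 0.22, for Pdia4 from -0.36 to 0.43, for Calr from -0.17 to 0.42, for Canx from -0.10 to 0.29, for Hyou1 from -0.33 to 0.39, for Sel1l from -0.43 to 0.27, for Edem1 from -0.25 to 0.016, for Eif2ak3 from -0.17 to 0.17, for Ddit3 from -0.76 to 0.016 and for Trib3 from -0.35 to 0.22.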
